A study of Danio rerio with 8 samples.

Results

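The Frizzled genes encode the seven-pass membrane receptors that bind Wnt proteins through a cysteine-rich domain outside the cell. Together with the co-receptors Lrp5 and Lrp6 they lead through Dishevelled to stabilised beta-catenin (the canonical branch), and together with Ror, Ryk or Ptk7 they act on cell polarity and movement (the non-canonical branch). In the zebrafish gastrula the first branch patterns the ventrolateral margin and the posterior neural plate, and the second drives the cell movements that narrow and lengthen the body axis. Zebrafish carry extra copies of several of these receptors from the genome duplication of teleost fish. The genes described here were taken by symbol: fzd1, fzd2, fzd3a, fzd3b, fzd4, fzd7a, fzd7b, fzd8a, fzd8b and fzd10, which are 10 of the 32520 genes in the table. Each symbol stood on 1 row, and the rule names symbols only, although it was set with earlier results of these data known. A further 4 Frizzled genes of the table (fzd5, fzd6, fzd9a and fzd9b) are not members and are given for comparison.

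Whole AB strain zebrafish embryos, yolk included, were exposed from 2 hours post fertilization (hpf) in wells of 25 and collected at 8 hpf, during gastrulation, in pools of 75. The 4 control pools received 0.5% DMSO, the solvent of the plant extract stocks, and the labels give no DMSO level for the treated pools. The 4 treated pools received the ethanolic extract of Mahonia bealei stems (KT09) at 100 µg/ml. This concentration was picked in the study because embryos then regularly showed a misshapen yolk during epiboly, the spreading of the cells over the yolk, and the comparison asks which transcripts differ at that time. The methods of the study say in general that repeats used separate clutches, while the labels do not tie single pools to clutches. The labels give the time as 8 hpf, and parts of the text of the study name a later hour for the same data. The label "whole larvae" was checked against marker genes. All 10 neural plate genes, all 10 mesendoderm genes and all 5 enveloping layer genes reached a mean of 10 normalised reads. Of 8 genes of later cell types, 5 lay below it, from blood, neurons and pigment. The 3 above it were myod1 (38.6) and myhz1.1 (129) of muscle and elavl3 (93.3) of neurons, by means over all libraries.

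The deposited values are group means of normalised reads, that is of reads divided by a size factor for the depth of each library. Because they are printed to 15 digits, the whole reads of the 4 libraries behind a mean could be worked out for 8 of the 10 members, while fzd7a and fzd7b have so many reads that several sets of reads fit equally well. The libraries are named below by their relative depth, which was 1.14, 0.978, 0.966 and 0.82 in control and 1.16, 1.04, 1.02 and 0.98 in treated embryos, since they cannot be tied to replicate numbers. This worked for 14387 genes in all, out of 15888 whose mean was 10 or more. For fzd3a, fzd8a and fzd8b further solutions exist in at least 1 group, but in each of them the libraries of that group differ by at least 4.8-fold from one another, and the even one was taken. The labels give the library of replicate 4 of each group a name of the other group's kind. Among genes with a control mean of 100 or more, hoxc3a had the lowest ratio of treated over control. It had 59.8 to 360 normalised reads in the control libraries and 0.979 to 1.91 in the treated ones. Among genes with a treated mean of 100 or more and reads in control, myo1g had the highest ratio. Its libraries held 4.88 to 7.24 normalised reads in control and 47.9 to 210 in treated embryos. Neither gene placed a library in the range of the other group. Both were picked for the most extreme ratio in these same data, which favours separated groups. They are therefore no independent check of the library names.

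Of the 10 Frizzled members, fzd10, fzd2 and fzd3a were lower in treated embryos, at 2.70-fold, 2.02-fold and 1.88-fold, and fzd4 was 1.78-fold higher. The remaining members lay within 1.5-fold: fzd7a and fzd7b at 0.747 and 0.884 of the control mean, and fzd1, fzd3b, fzd8a and fzd8b with libraries that overlapped between the groups. By group means, 3 members lay past 1.5-fold on the lower side, where 15.5% of the 15888 genes did, and 1 on the higher side, where 14.1% did. In the limma test on the recovered libraries, 3 of 8 members passed as lower (18.8% of the 14387 genes tested) and 1 as higher (17.0%), at an adjusted p under 0.05. The control and treated libraries did not overlap for 4 of the 8 members, against 34.7% of all genes tested. The median log2 ratio was -0.23 over the 10 members and 0.01 over all genes with a mean of 10 or more. Summed over the 10 members, the group means were 24078 normalised reads in control and 19770 in treated embryos, a log2 ratio of -0.28. Most of these reads, which are not scaled by length, were of fzd7a and fzd7b (18156 and 14692), which could not be tested. The other 8 members summed to 5921.5 and 5077.8, a log2 ratio of -0.22. In whole embryos fewer cells that use a gene and less RNA per cell cannot be told apart.

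**Figure D1:**
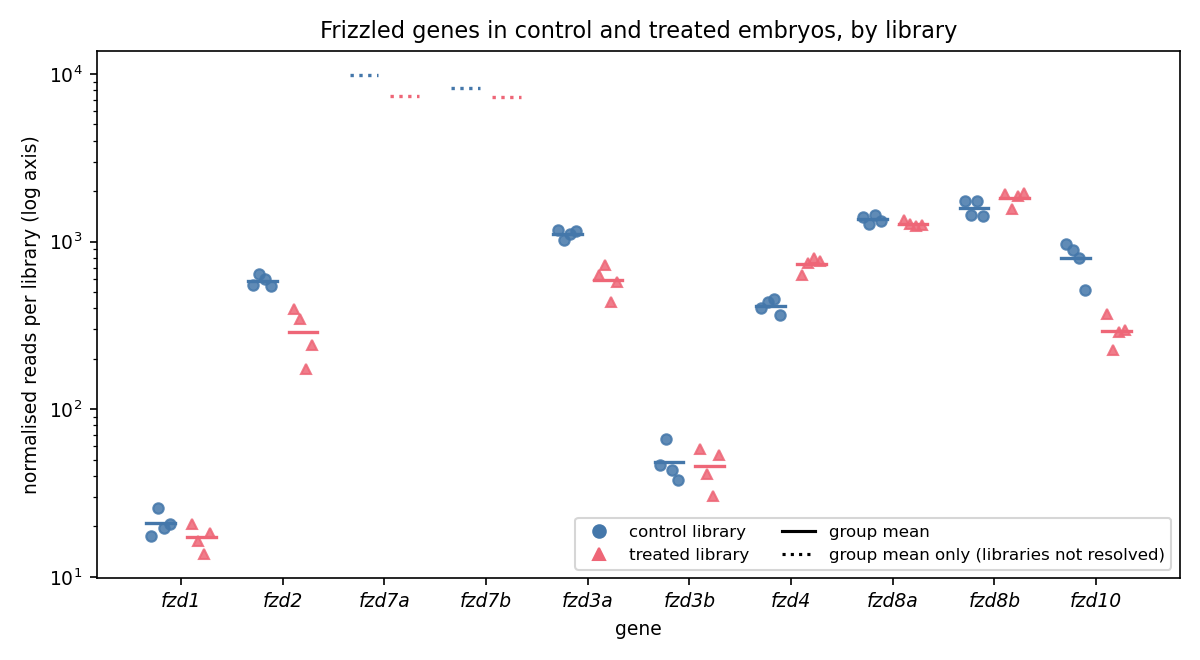
Normalised reads (log axis) of the 10 Frizzled genes in the control libraries (circles) and the treated libraries (triangles), with group means as lines; for fzd7a and fzd7b only the group means are known (dotted). The treated libraries sit below all control libraries for fzd2, fzd3a and fzd10 and above them for fzd4, and they overlap for fzd1, fzd3b, fzd8a and fzd8b.

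Among the receptors of the subfamily of fzd1, fzd2 and fzd7, fzd2 (ENSDARG00000054438) was lower in treated embryos. Its protein serves as a receptor for Wnt5 in zebrafish, in the non-canonical branch. In the order of relative depth given above, the control libraries held 552, 644, 597 and 543 normalised reads. The treated libraries held 396, 345, 174 and 242. All 4 treated libraries lay below the lowest control library, and they spread more widely: 289 ± 100 against 584 ± 46.5 (mean ± SD, n = 4 each). The log2 difference was -1.08 ± 0.22 (limma estimate and its standard error, adjusted p = 0.00474), and the exact two-sided permutation test over the 8 libraries gave p = 0.0286, the smallest that 4 against 4 allow. The treated library of relative depth 1.02 was the lowest, and without it the log2 difference was -0.86 (adjusted p = 0.00591, limma).

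fzd1 (ENSDARG00000106062) was scarce in both groups, with 14 to 25 reads a library before normalisation. The control libraries held 17.5, 25.6, 19.7 and 20.7 normalised reads and the treated ones 20.6, 16.3, 13.7 and 18.4. The groups overlapped, and the standard deviations (3.42 and 2.95) were no larger than counting error alone gives (4.65 and 4.06). The limma log2 difference of -0.26 did not pass (adjusted p = 0.450), and its 95% interval of -0.84 to 0.31 leaves room for a change past 1.5-fold downwards.

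fzd7a (ENSDARG00000060004) and fzd7b (ENSDARG00000027589) encode receptors that in zebrafish take part in convergence and extension of the gastrula. The authors' mean of fzd7a was 9895 normalised reads in control and 7390 in treated embryos, a log2 ratio of -0.42 with a 95% interval of -0.44 to -0.40. That of fzd7b was 8262 and 7302, a log2 ratio of -0.18 (-0.20 to -0.16). These intervals cover counting error only, and without values per library there is no test of either gene. The log2 ratio of fzd7a lay 0.24 below that of fzd7b (95% counting interval of the difference, -0.27 to -0.21), so that the reads of the 2 copies, not scaled by transcript length, stood at 1.20 to 1 in control and at 1.01 to 1 in treated embryos. The counting may have split reads between close copies.

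In the subfamily of fzd3 and fzd6, fzd3a (ENSDARG00000021664) was lower in treated embryos. FZD3 is known from mice as a polarity receptor needed for axon tracts. The control libraries held 1171, 1019, 1107 and 1164 normalised reads. The treated libraries held 636, 722, 436 and 574. The lowest control library was thus well above the highest treated one, with means of 1115 ± 70.0 and 592 ± 120 (SD, n = 4 each). The log2 difference was -0.93 ± 0.14 (limma, adjusted p = 0.00101; exact permutation p = 0.0286). As for fzd2, the treated library of relative depth 1.02 was the lowest.

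Its copy fzd3b (ENSDARG00000058692) had 46.3, 66.5, 43.5 and 37.8 normalised reads in the control libraries and 57.5, 41.2, 30.3 and 53.1 in the treated ones. The groups overlapped across most of their range. The limma log2 difference was -0.10 with a 95% interval of -0.67 to 0.47 (adjusted p = 0.793), and its sign turned in 2 of 13 alternative settings. The ratio of fzd3a to fzd3b within a library fell from a log2 of 4.52 ± 0.42 to 3.69 ± 0.33 (SD, n = 4 each), a difference of -0.84 (exact two-sided permutation p = 0.0571). That did not pass, so a different response of the 2 copies was not shown. The non-member of this subfamily, fzd6, a polarity receptor of skin and hair in mice, had 291, 265, 239 and 279 normalised reads in control and 187, 153, 170 and 221 in treated libraries. It passed as lower without overlap, with a log2 difference of -0.56 ± 0.13 (limma, adjusted p = 0.00943), and by group means it lay within 1.5-fold.

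The subfamily of fzd4, fzd9 and fzd10 held members that differed in opposite directions. fzd10 (ENSDARG00000068213), which in zebrafish is known as a gene of the dorsal neural tube, had 973, 894, 798 and 514 normalised reads in the control libraries. The treated libraries held 368, 225, 289 and 296. The groups did not overlap, but the control library of relative depth 0.82 stood apart from the other controls, toward the treated ones. The means were 795 ± 201 and 294 ± 58.4 (SD, n = 4 each), and the log2 difference was -1.41 ± 0.20 (limma, adjusted p = 0.00095; exact permutation p = 0.0286). Without that control library the log2 difference was -1.61 (adjusted p = 0.000276, limma).

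fzd4 (ENSDARG00000104117) was the only one of the 8 tested members that passed as higher. In mammals its protein is the receptor of Norrin in the vessels of the retina and also binds Wnt proteins. The control libraries held 400, 433, 454 and 364 normalised reads. The treated libraries held 631, 746, 799 and 762. Every treated library lay above every control library, with means of 413 ± 39.7 and 735 ± 72.3 (SD, n = 4 each). The log2 difference was 0.83 ± 0.10 (limma, adjusted p = 0.000504; exact permutation p = 0.0286). The Norrin gene ndp and tspan12, which encodes the tetraspanin that helps Norrin signal through this receptor in mammals, were nearly absent, with means of 3.36 and 0.83 normalised reads in control and of 0 and 3.30 in treated embryos.

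fzd9b, which is not a member, had 528 to 635 normalised reads in control and 440 to 636 in treated libraries, and its log2 difference of -0.16 did not pass (limma, adjusted p = 0.305). The log2 ratio of fzd10 to fzd9b within a library fell by 1.25, from 0.40 ± 0.34 to -0.85 ± 0.10 (SD, n = 4 each), with an exact two-sided permutation p of 0.0286. fzd9a had 1 read in each group in all, which is under the limit of 3 counts used here, and no fold is given.

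Neither gene of the fzd8 pair, which belongs with fzd5, passed the test, and for both the groups overlapped through 1 treated library. FZD8 and FZD5 are known to work with Lrp5 and Lrp6 in canonical signalling, and fzd8a is known in zebrafish from the anterior neural plate. fzd8a (ENSDARG00000045444) had 1396, 1277, 1440 and 1325 normalised reads in the control libraries and 1349, 1264, 1243 and 1257 in the treated ones. One treated library lay among the controls and the others just below all of them. The log2 difference was -0.09, with a 95% interval of -0.23 to 0.05 (limma, adjusted p = 0.303). Both ends of this interval are well inside 1.5-fold.

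fzd8b (ENSDARG00000038569) had 1741, 1446, 1740 and 1418 normalised reads in the control libraries and 1934, 1558, 1862 and 1954 in the treated ones. One treated library lay among the controls and the others above all of them. The log2 difference of 0.20 ± 0.10 did not pass (limma, adjusted p = 0.129, 95% interval -0.01 to 0.42). It passed when the treated library of relative depth 1.04, the low one, was left out (0.28, adjusted p = 0.0376, limma). The log2 ratio of fzd8a to fzd8b within a library was -0.22 ± 0.10 in control and -0.51 ± 0.15 in treated embryos (SD, n = 4 each), a difference of -0.29 with an exact two-sided permutation p of 0.0571. The related fzd5 had 28.0 to 41.9 normalised reads in control and 23.5 to 72.7 in treated libraries, and did not pass (limma, adjusted p = 0.361).

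In all, 4 ratios within libraries were compared, the fourth being fzd2 over fzd1, whose log2 fell by 0.81 (exact two-sided permutation p = 0.0286). These ratios were not planned and were set up after the data had been seen. In fzd2 over fzd1, fzd10 over fzd9b and fzd3a over fzd3b, a gene that passed as lower stands over one that did not pass. Those ratios are therefore not independent of the tests of single genes. After Benjamini-Hochberg adjustment over the 4 ratios each stood at an adjusted p of 0.0571 by the exact permutation test, so none passed 0.05. With a smallest p of 0.0286, 2 completely separated ratios among 4 cannot pass this adjustment on their own, so that fzd10 over fzd9b and fzd2 over fzd1 could not have passed unless a further ratio did too.

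**Figure D2:**
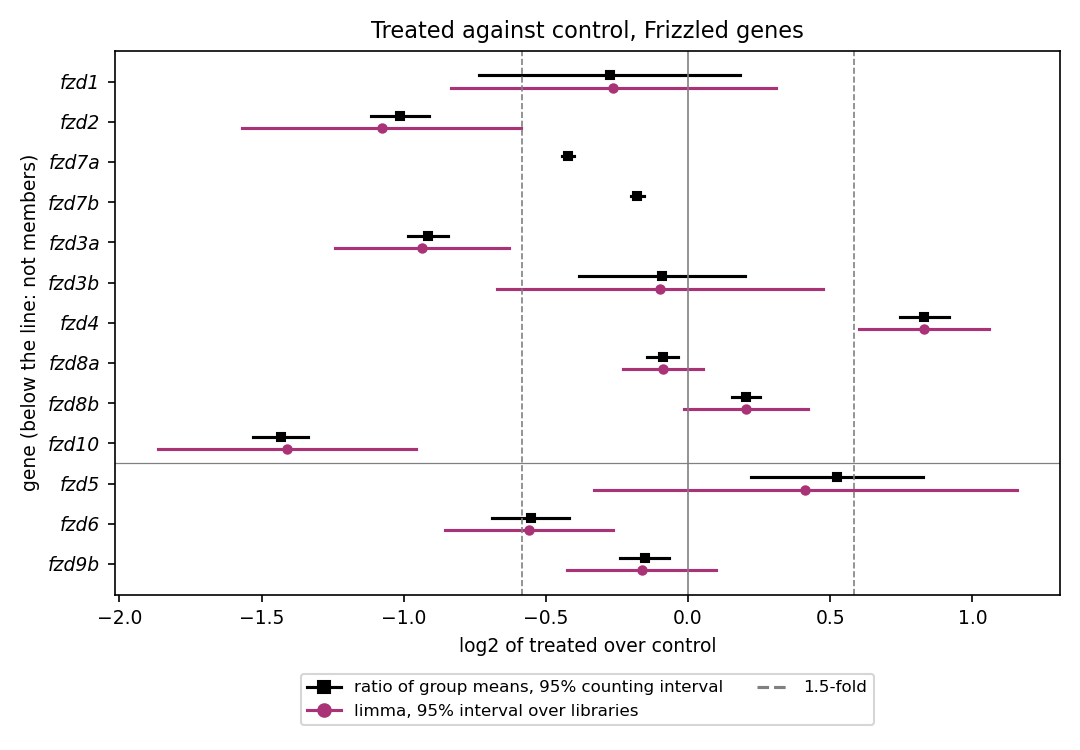
The log2 of treated over control for the 10 Frizzled members and, below the line, 3 other Frizzled genes; squares are ratios of group means with 95% counting intervals, circles are limma estimates with 95% intervals over libraries, and dashed lines mark 1.5-fold. The limma intervals of fzd2, fzd3a and fzd10 lie wholly below 0 and that of fzd4 wholly above 0, while those of fzd1, fzd3b, fzd8a and fzd8b include 0.

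The spread of all genes depends on their level, so the members were also set beside genes of like abundance. In the 3329 genes with a mean of 300 to 1000 normalised reads, the 5th and 95th percentiles of the log2 ratio were -0.78 and 0.76, and 9.13% lay past 1.5-fold on the lower and 9.1% on the higher side. The members in this range were fzd2, fzd3a, fzd4 and fzd10, and each lay outside these percentiles, with log2 ratios of group means of -1.01, -0.91, 0.83 and -1.43. The more abundant fzd8a and fzd8b lay within the corresponding percentiles of -0.65 and 0.72 (1941 genes with a mean of 1000 to 3000). fzd7a, at -0.42, lay at the 5th percentile of -0.42 of the 922 genes with a mean of 3000 to 10000, a class whose median was 0.09, and fzd7b lay inside.

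**Figure D3:**
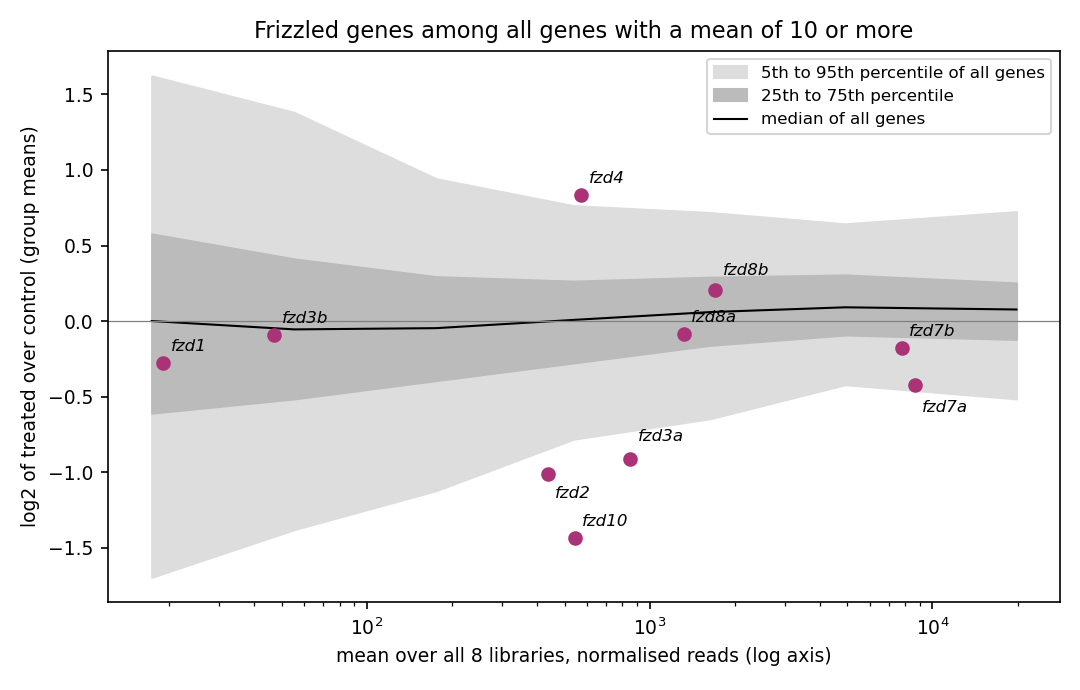
The log2 of treated over control (group means) against the mean over all 8 libraries (log axis) for the 10 Frizzled members, over bands that give the 5th to 95th and the 25th to 75th percentiles of all genes with a mean of 10 or more and reads in both groups. fzd2, fzd3a, fzd10 and fzd4 lie outside the wide band, fzd1, fzd3b, fzd8a, fzd8b and fzd7b lie inside it, and fzd7a lies near its lower edge.

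Transcripts of the proteins that share a Wnt complex with the Frizzleds did not all differ in the same direction. Of 8 co-receptor genes found, 7 had a mean of 10 or more, of which 1 lay past 1.5-fold lower and none higher, and of 4 tested in the libraries 2 passed as higher and 1 as lower. ror1, a receptor kinase for Wnt5, was lower (173 to 81.2 normalised reads by group means, log2 difference -1.06 ± 0.22, limma, adjusted p = 0.00542), with 117 to 239 in control and 61.7 to 97.0 in treated libraries. ryk, a Wnt5 co-receptor, was higher, with 1235 to 1320 in control and 1615 to 1768 in treated libraries (0.38 ± 0.06, adjusted p = 0.00136, limma). The other gene that passed as higher was lrp6, named here after its values were seen (0.38 ± 0.09, adjusted p = 0.00752, limma). lrp5, also named after its values were seen, did not pass (-0.23 ± 0.09, adjusted p = 0.0614, limma). Its libraries held 1052 to 1314 normalised reads in control and 868 to 1016 in treated embryos, without overlap. ptk7a, a polarity co-receptor, had group means of 4781 and 6046 and could not be tested. Of the Dishevelled genes, which carry the signal inside the cell, none of 4 lay past 1.5-fold: dvl2 had group means of 2391 and 2775 without a test, and dvl1b and dvl3b, with 14.6 and 14.2 in control against 10.9 and 11.1 in treated embryos, did not pass (limma, adjusted p = 0.373 and 0.404).

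Genes that set how much Frizzled stays at the surface were mixed. znrf3, a ubiquitin ligase that removes Frizzled from the membrane, was lower although its libraries overlapped (97.6 to 136 in control, 60.7 to 107 in treated; log2 difference -0.60 ± 0.19, limma, adjusted p = 0.0343). lgr4, a receptor for the R-spondins that hold this ligase back, was lower as well (285 to 344 and 176 to 281; -0.51 ± 0.15, adjusted p = 0.0225, limma). rspo3, such an R-spondin, was higher with overlap (95.2 to 210 and 174 to 293; 0.71 ± 0.24, adjusted p = 0.0424, limma). The R-spondin genes rspo1 and rspo2 were named after their values were seen. rspo1 did not pass (adjusted p = 0.612, limma). rspo2, whose mean was under 10 and which was not tested with limma, had 5.11 to 13.1 normalised reads in control and 0 to 1.96 in treated libraries. Of the 4 genes of this list with a mean of 10 or more, 1 thus passed as higher and 2 as lower.

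Some secreted proteins carry a Frizzled-like domain and capture Wnt proteins, and the transcripts of the 2 such genes that could be tested were lower. sfrp5 fell from 28.1 to 49.7 normalised reads in the control libraries to 5.74 to 14.6 in the treated ones (log2 difference -1.98 ± 0.32, limma, adjusted p = 0.00167). frzb, named after its values were seen, also passed (-0.46 ± 0.14, adjusted p = 0.0285, limma), with overlapping libraries. sfrp1a had group means of 4840 and 2900, a log2 ratio of -0.74, and could not be tested.

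Of 25 Wnt ligand genes, 19 had a mean under 10 normalised reads at this stage. Of the other 6, 3 passed as lower and 1 as higher. wnt8b, a ligand of the posterior forebrain and midbrain, held 70.8 to 218 normalised reads in the control and 0 to 5.15 in the treated libraries (log2 difference -5.51 ± 0.59, limma, adjusted p = 0.000296). wnt11f2, the silberblick gene needed for convergence and extension in zebrafish, was higher (957 to 1090 and 1400 to 1656; 0.57 ± 0.07, adjusted p = 0.000599, limma). wnt11 had 1.22 to 14.0 and 3.83 to 40.8 normalised reads and did not pass (adjusted p = 0.322, limma). The other ligands that passed as lower, named after their values were seen, were wnt5b at a log2 difference of -0.45 ± 0.08 (adjusted p = 0.00191, limma) and wnt8a, the ventrolateral ligand of the gastrula margin, at -0.59 ± 0.10 (adjusted p = 0.00159, limma).

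**Figure D4:**
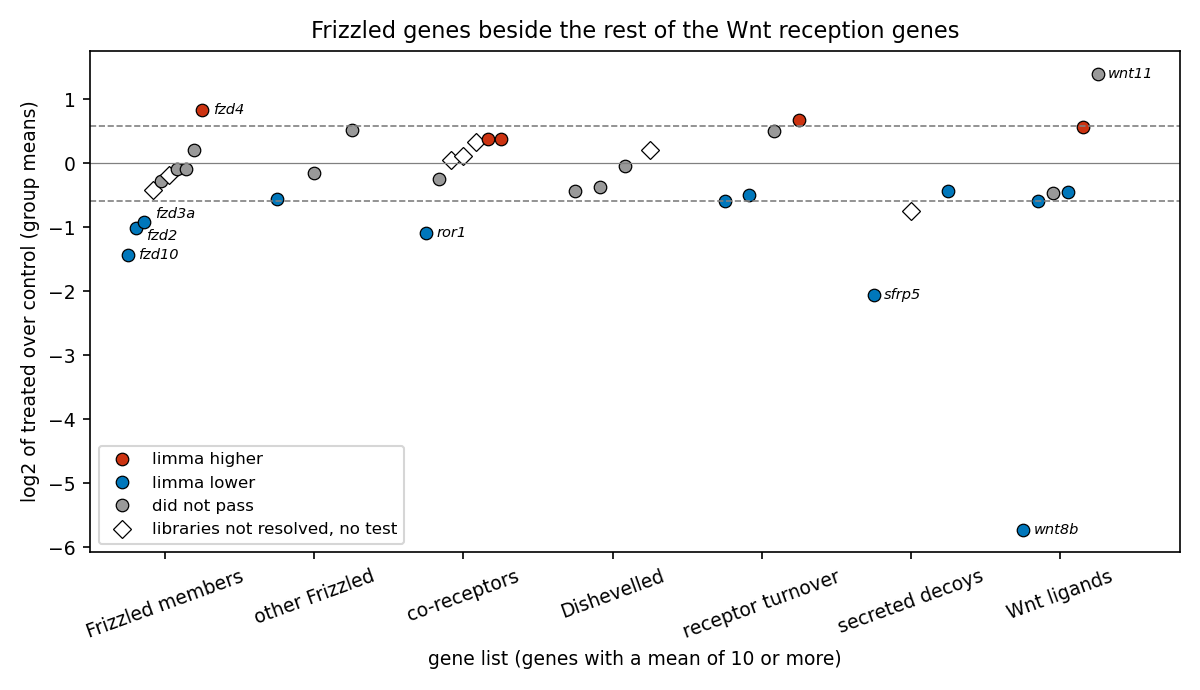
The log2 of treated over control (group means) for the genes of 7 lists with a mean of 10 or more; filled circles were tested in the libraries (red passed as higher, blue passed as lower, grey did not pass), open diamonds could not be tested, and dashed lines mark 1.5-fold. Among the receptors fzd10 is the lowest and fzd4 the highest, and wnt8b is the lowest gene of these lists.

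The libraries differed within each group for the Frizzled genes and for marker genes, not always in the same order. The control library of relative depth 0.82 stood at 64.6% of the control mean for fzd10, 93% for fzd2, 104% for fzd3a and 88.1% for fzd4, so that it stood apart toward the treated libraries for fzd10 and not for fzd3a or fzd4. The same library stood at 68.8% for the sum of the 5 resolved neural plate genes, a partial sum of the 10 listed, and at 120% for the sum of the 8 maternal and germ plasm genes. Among the treated libraries that of relative depth 1.16 was nearest to the controls for fzd10 (46.3%), fzd2 (67.8%) and fzd4 (153%), for the mesendoderm sum (111%), the yolk syncytial sum (124%) and the maternal sum (166%), but not for fzd3a or the neural plate sum of resolved genes. Taken singly, each of the 5 genes of that neural plate sum was nearest to the controls in this library. It held 61.8 normalised reads of fezf2, 24.0 of rx3, 210 of six3b and 104 of pax6b, against at most 17.6, 5.74, 182 and 35.2 in other treated libraries. For sox2, which was higher in treated embryos, it held 1713 against at least 1841. Here six3b, pax6b and sox2 were named after their values were seen. The treated library of relative depth 1.02 held both the lowest fzd2 and fzd3a (29.8% and 39.1%) and the highest fzd4 (193%). It was also the highest for the mesendoderm sum (136%), and it was neither the highest nor the lowest treated library for the neural plate (60%), yolk syncytial (127%) or maternal (211%) sums. Correlations of log2 values over the 14387 resolved genes with a mean of 10 or more were 0.947 to 0.98 within and 0.874 to 0.953 between groups. In each group 1 library had the highest mean correlation with the other group. These were the control library of relative depth 0.82 (0.926, and 0.955 with its own group) and the treated library of 1.16 (0.935 and 0.958).

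Marker lists of cell types and stage differed between the groups as well. By group means 6 of 10 neural plate genes lay past 1.5-fold lower and 1 higher (median log2 ratio -1.96), led by fezf2, a forebrain factor, with 365 to 1145 normalised reads in control and 16.3 to 61.8 in treated libraries, and rx3, a factor of the eye field, with 116 to 366 and 2.94 to 24.0. zic2b, which has the most reads of the list without scaling by length, had group means of 10403 and 13682. The summed level of the 5 resolved genes was 2545 to 4433 in control and 2028 to 2241 in treated libraries. Over all 10 genes the list did not fall in sum, with group means summing to 28930 in control and 30186 in treated embryos. The 5 genes that are not resolved are zic2b, sox3, sox19a, otx2b and hoxb1b, all but zic2b named after their values were seen. Of these, sox3 and sox19a were higher, like zic2b, with group means of 3496 and 6137 and of 6371 and 7587. otx2b and hoxb1b were lower, with group means of 2471 and 386 and of 2491 and 244. Of 10 mesendoderm genes 4 lay past 1.5-fold higher and 1 lower: mixl1, an early endoderm factor, had 88.9 to 138 and 265 to 948 normalised reads, tbx16 had group means of 6928 and 10695, and tbx6 had 2439 and 667. The sums of 6 resolved genes ran from 4942 to 5409 and from 5681 to 6958.

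All 5 enveloping layer keratin and claudin genes lay within 1.5-fold, with group means of 60219 and 65972 for krt8, 35863 and 32167 for krt5 and 4456 and 5373 for cldne. Of the yolk syncytial genes, none of 3 with a mean of 10 or more lay past 1.5-fold. hnf4a had 1814 to 2068 and 2540 to 2839 normalised reads, and gata6, which is not resolved, had group means of 4152 and 5991. The 3 resolved genes are hnf4a, mxtx1 and mxtx2, the last with a mean under 10. Their sums were 2438 to 2718 and 3224 to 3570. Of 8 maternal and germ plasm genes 5 lay past 1.5-fold higher and none lower, with 855 to 1270 and 1627 to 2707 normalised reads for ddx4, a germ plasm helicase, and 11.4 to 33.7 and 32.6 to 108 for buc, the organiser of germ plasm. The sums of these 8 genes were 1786 to 2475 and 3445 to 4732, and in both groups they ran in the reverse order of the relative depth of the libraries. A large part of the sums was ddx4, with group means of 1004 and 2309 against 2070 and 4130 for the list. ddx4 ran in this order itself, but not every gene of the list did. buc held 108, 33.5, 43.1 and 32.6 normalised reads in the treated libraries, from the highest to the lowest relative depth. Of the 3 genes of later cell types with a mean of 10 or more, myod1, a muscle factor, and elavl3, a neuronal gene, lay past 1.5-fold lower (56.6 to 20.6 and 129 to 57.4 by group means) and myhz1.1 did not (136 and 121). The part of cell composition, developmental stage and depth in the Frizzled values was not tested.

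**Figure D5:**
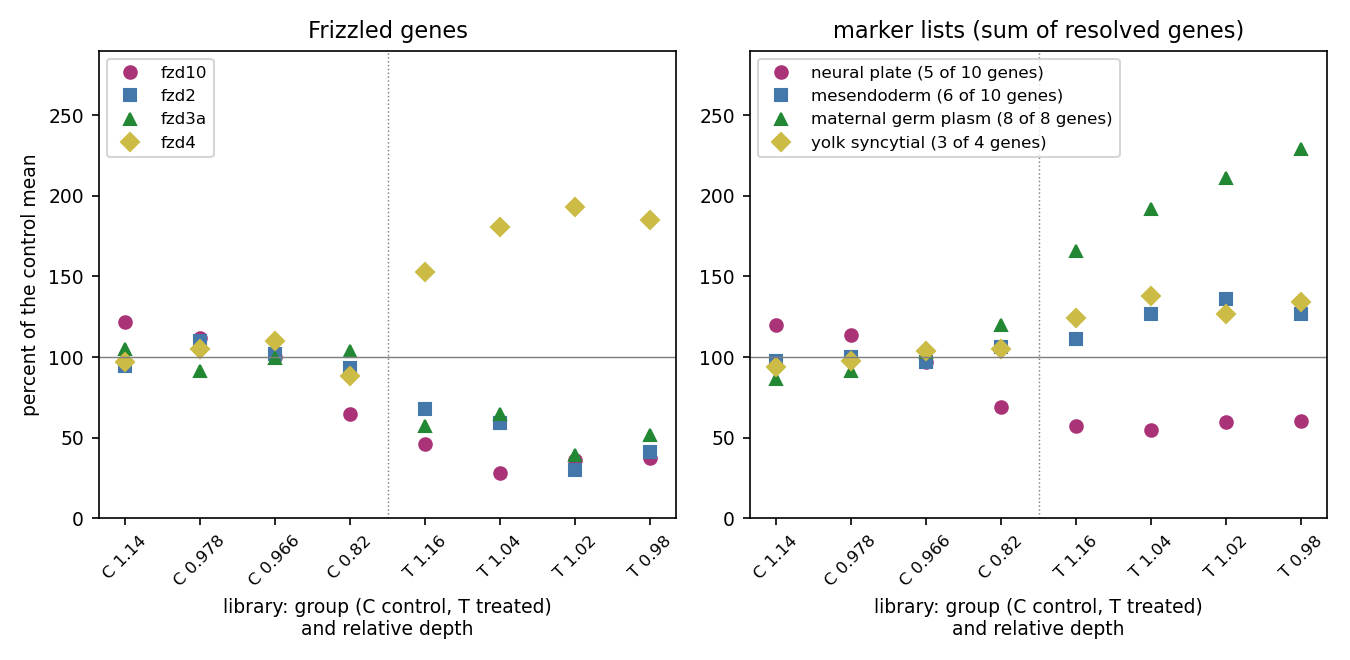
Values of each library as a percent of the mean of the control libraries, for the Frizzled genes that passed (left) and for summed marker lists (right); libraries are ordered by relative depth within a group, which is no replicate order. The control library of depth 0.82 stands at 64.6% for fzd10 and 104% for fzd3a, and all treated libraries lie below all control libraries for fzd10, fzd2, fzd3a and the sum of the 5 resolved neural plate genes (not for all 10, whose summed group means were 28930 and 30186) and above them for fzd4 and the other sums.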

How the data were processed

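Stranded single-end mRNA libraries were processed by the authors with nf-core rnaseq against GRCz11, followed by DESeq2 (version not given in the sources used here). The deposited table holds signal values: the authors' means of reads per gene, divided by size factors, over the control, the treated and all libraries. Its 5 columns of the authors' own comparison (fold changes, test statistics, p-values) were not used. The group means summed to 16159905 normalised reads in control and 16913446 in treated embryos.

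After the data had been seen, the whole reads of each library were recovered from the group means. The smallest steps of a column give 1 read in each of its 4 libraries. Sets of whole reads that give the printed mean to its last digit were then searched by lattice reduction near an even split over the libraries. This search was not exhaustive, so sets far from an even split can have been missed. A gene was resolved where 1 set was found, or 1 with every library at 0.5 to 1.5 times the mean; 1501 abundant genes were not resolved (lowest mean 835), and the resolved ones hold 31.98% and 31.21% of the summed means. For the Frizzled genes other than fzd7a and fzd7b all non-negative sets were enumerated. The reads may be rounded estimates. Genes with a mean of 10 or more and resolved in both groups were compared with limma 3.58.1 (limma-trend, R 4.3.3) on log2(normalised reads + 1), with Benjamini-Hochberg adjustment over 14387 genes, in addition to the planned comparison of group means, which has no test. Counting intervals (95%) come from the relative depths, and they and the count limit of 3 cover counting error only. Exact permutation tests used 70 relabellings. The recovery and the model were tried on simulated data with the same spread beyond counting error for every gene. Genes that vary more between libraries were not covered by these runs, whose outcome is not given here. Python 3.11.15, numpy 2.4.6, pandas 2.3.3, scipy 1.17.1 and matplotlib 3.10.9 were used.

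The members and gene lists were chosen with earlier results of these data known. Named genes are the members, the other Frizzled genes, and in each list the 2 with the largest absolute log2 ratio and the 1 with the highest mean among genes with a mean of 10 or more. Where a symbol stood on several rows (wnt8a, myhz1.1), the most abundant was taken. No transcript lengths were at hand, so reads of different genes set side by side are not scaled by length and do not compare their expression.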

Additional observations from a re-analysis of the deposited data

How the results depend on the processing

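The calls of fzd2, fzd3a, fzd4 and fzd10 kept their direction and passed in all 14 alternatives of the limma test, with log2 differences of -1.25 to -0.86, -1.04 to -0.80, 0.77 to 0.90 and -1.61 to -1.29. These alternatives were chosen after the data had been seen: pseudocounts of 0.5 and 5, means of 1 or 100 or more, voom, equal sums over resolved genes, and leaving out each library. Leaving out 1 library gave 1 to 2 of 8 members as higher and 3 to 3 as lower. Over all 14387 genes tested it gave 1786 to 2455 as higher and 2013 to 2740 as lower. The second higher member was fzd8b without the treated library of relative depth 1.04. The log2 difference of fzd3b, which did not pass under any of them, ran from -0.22 to 0.08 as libraries were left out, and turned to 0.06 without the control library of relative depth 0.978 and to 0.0769 without the treated library of 1.02; its counts of 31 to 67 reads a library limit its precision. At a fold threshold of 2 the number of members past it was 0 higher and 2 lower, and at 1.3 it was 1 and 4. Over all genes with a mean of 10 or more, 978 and 1096 (6.16% and 6.9%) lay past 2-fold, higher and lower. Past 1.3-fold lay 3615 and 3767 (22.8% and 23.7%). Past 1.5-fold, other filters gave counts and shares over other numbers of genes. They were 4265 and 4116 with a mean of 1 or more (19.4% and 18.7%) and 934 and 994 with a mean of 100 or more (9.61% and 10.2%). With any mean above 0 they were 6107 and 5671 (23.3% and 21.7%). The median log2 ratio of genes with a mean of 100 or more was 0.02 and the log2 ratio of the summed means 0.07. Centred on either value, the members past 1.5-fold stayed at 1 higher and 3 lower. Under these scalings the members were not counted at the thresholds of 1.3 and 2, and the group means were not scaled in other ways. No paired analysis was possible because the recovered libraries carry no replicate numbers. Levels per transcript length and protein identities were not run for want of lengths and protein sequences in the references used here.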
